A study of Mus musculus with 16 samples.

Results

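The experiment described here is the response of 1 mouse embryonic stem cell line, which carries the K365T form of CTCF, to the loss of leukemia inhibitory factor (LIF) and a pair of kinase inhibitors. K365T cells kept for 3 days without these additions (no LIF, 2 libraries) were set against K365T cells kept with them (LIF, 2 libraries). The members were chosen by level alone: 17817 of the 55291 genes in the authors' table averaged 10 or more normalised counts across these 4 libraries, and 32567 had a value above 0 in at least 1 of them. Of the members, 14298 are annotated as protein coding. Just outside the threshold lay Ywhaq-ps3 with a mean of 9.996 and just inside it Sntg2 with a mean of 10.009. Because of the filter, 1126 members had a mean below 10 with LIF and 806 had one below 10 without it.

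The cells derive from E14Tg2a, a feeder-free line of strain 129/Ola. In every culture of the series the endogenous CTCF protein carried an auxin-inducible degron and was depleted with 500 µM indole-3-acetic acid, and 1 µg/ml doxycycline switched on a CTCF transgene. The labels' protocols give 2 days for both agents. The transgene carried the K365T change in the line described here, and the R342C change, the Q418R change or the wild-type sequence (WT) in the other 3 lines. No LIF cultures lacked LIF, 3 µM CHIR99021 and 1 µM PD0325901, while LIF cultures had all 3 in the same serum medium. The labels give 1 line per genotype, so the change in CTCF and the history of a clone cannot be told apart. Each of the 8 groups had 2 libraries, made from 500 ng of total RNA after depletion of ribosomal RNA. Nothing in the labels says that the 2 libraries of a group came from separate cultures, so that p-values measure only the spread between these libraries, which may be technical. The K365T libraries held 21726797 and 19721363 reads without LIF and 21643305 and 23622882 with LIF. Structural RNAs took 4.33% and 2.75% of the normalised counts without LIF and 3.77% and 2.28% with LIF.

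LIF signals through its receptor and the kinase JAK to the transcription factor STAT3. CHIR99021 inhibits GSK3, which normally marks beta-catenin for destruction, and PD0325901 inhibits MEK, the kinase above ERK. Together they hold embryonic stem cells in the naive state, a ground state like that of the early epiblast, and cells that lose them silence naive factors, switch on formative genes such as Otx2 and Fgf5, and become ready to form germ layers. CTCF is a zinc finger protein that stops cohesin on DNA and so sets the borders of chromosome loops, and the change in K365T lies in its zinc fingers. Reads of the transgene and of the endogenous gene are not separated in the counts, and how far transgene reads count as Ctcf is not given. Ctcf had 6541 and 6574 normalised counts in K365T cells without LIF and 6944 and 8585 with LIF. The response was -0.24 ± 0.15 on the log2 scale (SE, adjusted p = 0.226), and the groups did not overlap. Neither the degradation of the endogenous protein nor the K365T change itself can be read from this total.

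Promoters from RefSeq (build GRCm38.p6, 250 bases before to 50 bases after the annotated start) were matched for 12068 of the 17817 members. Printed 5′ to 3′ are 4 that hold a match to a motif given below and whose genes carry results described below. The promoter of Dmgdh, a gene that also carries results below, was searched too. It held no match to these motifs and is not printed. Socs3 (chr11:117969317-117969616, minus strand) encodes a feedback inhibitor of LIF signalling, and Sp5 (chr2:70474673-70474972, plus strand) is a target of beta-catenin. Bhmt (chr13:93637709-93638008, minus strand) encodes betaine-homocysteine methyltransferase and was among the members with the deepest falls. Sh3bgrl (chrX:109095157-109095456, plus strand) encodes a small SH3-binding protein and responded less in K365T than in the other lines. Capitals mark matches on either strand to 4 motifs.
Socs3: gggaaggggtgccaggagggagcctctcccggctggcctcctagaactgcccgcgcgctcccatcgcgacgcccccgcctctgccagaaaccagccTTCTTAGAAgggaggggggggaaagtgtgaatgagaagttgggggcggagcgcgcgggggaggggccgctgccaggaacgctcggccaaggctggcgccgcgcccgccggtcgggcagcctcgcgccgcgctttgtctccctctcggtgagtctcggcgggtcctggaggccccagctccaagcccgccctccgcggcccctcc
Sp5: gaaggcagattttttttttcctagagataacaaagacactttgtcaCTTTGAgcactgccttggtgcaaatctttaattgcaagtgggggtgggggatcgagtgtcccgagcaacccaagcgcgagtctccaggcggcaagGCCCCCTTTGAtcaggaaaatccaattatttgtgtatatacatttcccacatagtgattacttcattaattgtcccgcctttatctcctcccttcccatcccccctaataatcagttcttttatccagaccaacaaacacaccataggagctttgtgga
Bhmt: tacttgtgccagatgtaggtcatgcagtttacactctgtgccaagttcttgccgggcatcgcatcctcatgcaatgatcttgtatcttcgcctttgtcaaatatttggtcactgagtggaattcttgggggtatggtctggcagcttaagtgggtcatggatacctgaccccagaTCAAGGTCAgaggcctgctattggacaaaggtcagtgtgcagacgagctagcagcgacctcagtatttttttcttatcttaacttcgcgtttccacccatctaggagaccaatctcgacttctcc
Sh3bgrl: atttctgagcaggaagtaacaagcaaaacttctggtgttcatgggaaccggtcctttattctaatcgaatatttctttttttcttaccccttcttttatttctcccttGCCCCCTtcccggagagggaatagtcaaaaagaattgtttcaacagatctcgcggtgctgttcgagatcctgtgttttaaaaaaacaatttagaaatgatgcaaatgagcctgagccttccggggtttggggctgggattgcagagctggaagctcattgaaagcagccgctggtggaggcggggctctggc

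The capitals in Socs3 match the STAT motif TTCNNNGAA, 154 bases before the start. Those in Sp5 match the TCF/LEF motif CTTTGA 204 and 104 bases before the start, and the second of these overlaps a match on the minus strand to AGGGGGC, a core of the CTCF motif, 109 bases before the start. In Bhmt they match the ESRRB motif TCAAGGTCA 75 bases before the start, and in Sh3bgrl the CTCF core on the minus strand, 142 bases before the start. Of all 32851 promoters of this length, 8.3% held the STAT motif, 16% the TCF/LEF motif, 0.423% the ESRRB motif and 10.6% the CTCF core. Of the 12 largest rises 9 matched a promoter: 3 held the TCF/LEF motif, 2 the CTCF core and 0 the STAT or ESRRB motif. Of 11 large falls 9 matched, and each of the motifs was in 1 gene. The CTCF core was in 2 of 7 matched genes with large positive differences from the other lines. It was in 3 of 9 with large negative ones. A gene counted if any of its promoters held the motif. The matched genes had 10 promoters for the rises, 15 for the falls, 13 for the positive and 18 for the negative differences. Shares of genes are thus not on the same footing as the shares of promoters above. Whether they exceed those of all promoters was not tested. All of these are matches of letters, and no binding was measured.

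Withdrawal changed much of the transcriptome of the K365T line. With limma on log2(normalised count + 4) and Benjamini-Hochberg adjustment over all members, 3878 members (21.8%) were higher without LIF and 4132 (23.2%) were lower, 8010 (45.0%) in all, at an adjusted p under 0.05. Counts within gene lists below are to be read beside the 21.8% and 23.2% of all members. They cover only the listed genes that passed the filter, which a gene can pass through 1 group alone. Values of the 2 groups did not overlap in 12251 members (68.8%). The change was at least 2-fold in 2537 members that rose (14.2%) and in 2168 that fell (12.2%), and at least 16-fold in 143 (0.803%) and 162 (0.909%). Of the calls, 48.4% were higher, against 53.6% with the authors' TPM and 55.8% with upper-quartile scaling. All values below are log2 differences, no LIF minus LIF, with their SE unless another quantity is named, and since 4 is added before the logarithm they understate the change of genes with few counts. In bulk RNA, fewer cells that express a gene and less RNA per cell cannot be told apart.

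The members that rose furthest included genes nearly silent in LIF. Car4, a membrane carbonic anhydrase, had 2297 and 1706 normalised counts without LIF, against 2.21 and 2.05 with LIF, a log2 difference of 8.34 ± 0.28 (adjusted p = 1.6e-10). Cxcl12, a chemokine that guides migrating cells, had 739 and 1457 normalised counts without LIF and 0 and 1.03 with LIF. Its 1979 reads without LIF against 1 read with LIF, scaled for library size, are a ratio of 2036 (95% exact binomial interval 364.99 to 80456, counting error only). Both no LIF libraries stood far above both LIF libraries for either gene, and the rule that picked the largest rises and falls required groups without overlap. Another carbonic anhydrase, Car14, had 928 and 1391 normalised counts without LIF and 2.21 and 6.16 with LIF (7.17 ± 0.30). Epha1, an Eph receptor, had 1174 and 4087 without LIF and 14.4 and 17.4 with LIF (6.79 ± 0.49). The no LIF libraries differed more than 3-fold from each other for Epha1 and still lay far above LIF. Has2, which makes hyaluronan, had 963 reads without LIF against 1 with LIF, a ratio of 991 (177 to 39171). Lefty1, a secreted inhibitor of Nodal, had 2151 and 5406 normalised counts without LIF and 43.1 and 35.9 with LIF (6.30 ± 0.54). Kif1a, a motor of axonal transport, had 15120.3 and 16318 without LIF and 150.3 and 227 with LIF (6.38 ± 0.27). Enpp2, the secreted enzyme autotaxin, had 296 and 1087 without LIF and 4.42 and 1.03 with LIF (6.46 ± 0.58). Fndc3c1 rose by 6.93 ± 0.38, and Fam131b, Ms4a4d and Ccdc194 had 928, 725 and 1025 reads without LIF against 1, 1 and 3 with LIF.

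The members that fell furthest included the methyltransferase gene Bhmt and surface and signalling genes. Bhmt had 7.38 and 3.42 normalised counts without LIF, against 2713 and 2261 with LIF (-8.08 ± 0.27, adjusted p = 1.6e-10). Ly6a, the surface antigen Sca-1, had 8.43 and 6.84 without LIF and 2742 and 2033 with LIF (-7.67 ± 0.38). Aspa, aspartoacylase, had 6.32 and 2.28 without LIF and 1247 and 1096 with LIF (-7.19 ± 0.31). In each of these 3 genes both no LIF libraries were within a few counts of 0. Crxos, a homeobox gene of early embryos, had 24.2 and 15.96 without LIF, against 2741 and 2691 with LIF (-6.84 ± 0.35). Ddr2, a collagen receptor, had 15.8 and 11.4 without LIF and 928 and 2202 with LIF (-6.36 ± 0.51). Pramel6, of the Prame-like family, had no read without LIF, against 823 reads with LIF, which is at least 267-fold lower taking 3 reads over both libraries as the floor. By the same floor Cd180, a Toll-like receptor homologue, was at least 163-fold lower. Mgat4c, a glycosyltransferase, had 1 read without LIF and 1897 with LIF, a ratio of 1844 in favour of LIF (331 to 72870). The serpins Serpinb6c (-7.03 ± 0.28) and Serpinb1a (-6.85 ± 0.24) fell, as did Sh2d4b (-6.18 ± 0.34).

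**Figure D1:**
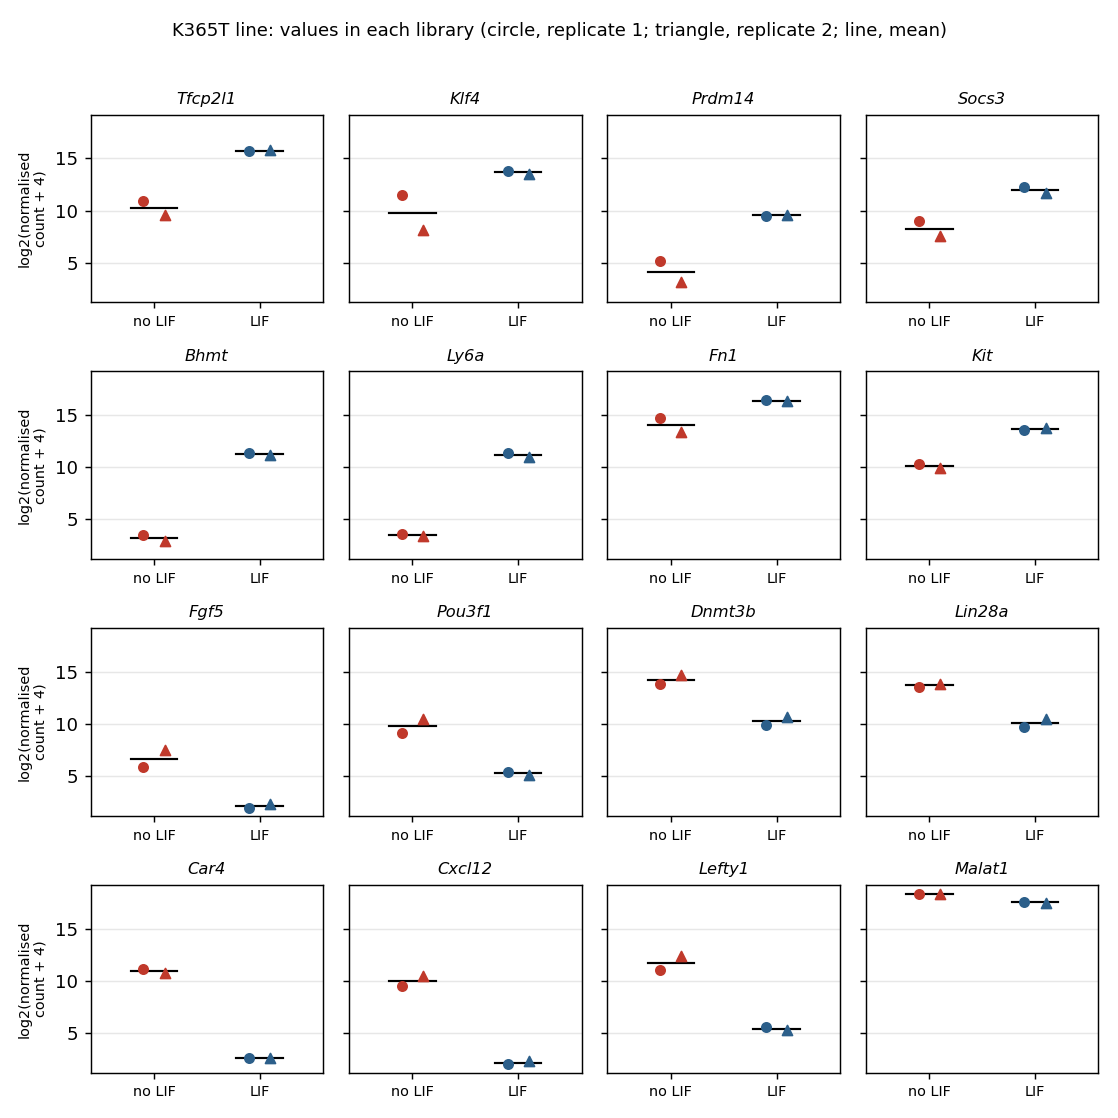
Log2(normalised count + 4) of 16 genes in each K365T library, no LIF left and LIF right, with circles for replicate 1, triangles for replicate 2 and a line at the mean of the 2 libraries. The 2 groups are apart in all 16 panels, and they did not overlap in 68.8% of all members. Some of these genes were picked by a rule that required no overlap. The replicates without LIF differ most for Klf4, with 2859 and 278 normalised counts.

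Members with the most counts, which are not scaled for gene length, changed as well. Malat1, a nuclear long noncoding RNA, had 344157 and 333306 normalised counts without LIF and 198973 and 187442 with LIF (0.81 ± 0.16). Fn1, fibronectin, had 26654 and 10872 without LIF and 91532 and 83143 with LIF (-2.36 ± 0.29). Pkm, pyruvate kinase, had 41884 and 49753 without LIF and 18969 and 23581 with LIF (1.11 ± 0.14). Hsp90aa1, a chaperone, had 46495 and 36954 without LIF and 79582 and 72809 with LIF (-0.88 ± 0.14). Malat1 and Pkm were higher, and Fn1 and Hsp90aa1 lower, in both no LIF libraries. Pabpc1 (-0.40 ± 0.14) and the mitochondrial transcripts mt-Nd1 (-0.61 ± 0.19), mt-Cytb (-0.43 ± 0.15) and mt-Nd2 (-0.47 ± 0.16) also passed the threshold. None of these 4 passed it with TPM, and each was lost without replicate 2 of the LIF group, replicate 1 of the no LIF group or both, with adjusted p up to 0.239. Of the 13 mitochondrially encoded genes these 3 were the only calls (23.1% lower, near the 23.2% of all members).

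The naive pluripotency factors fell together. Of 20 genes on the list 0 rose and 16 fell, and the median response was -2.58, against -0.0064 for all members. Tfcp2l1, a transcription factor at the centre of the naive network, had 1902 and 777 normalised counts without LIF, against 53262 and 57894 with LIF (-5.51 ± 0.30, adjusted p = 6.2e-09). Prdm14, which represses formative genes, had 31.6 and 4.56 without LIF and 713 and 759 with LIF (-5.40 ± 0.50). Nanog, the factor that lets cells renew without LIF when forced, had 2765 and 2808 without LIF and 22059 and 28412 with LIF (-3.17 ± 0.21). Its 2 no LIF libraries were close to each other and far below LIF. Klf4, a direct target of STAT3, had 2859 and 278 without LIF and 14337 and 11559.7 with LIF (-3.84 ± 0.71), and Esrrb, a nuclear receptor, had 6282 and 1658 without LIF and 17456 and 15149 with LIF (-2.33 ± 0.42). For these 2 genes replicate 1 without LIF retained several times the count of replicate 2. Tcl1 (-3.79 ± 0.34) and Fbxo15 (-3.31 ± 0.35) fell as well. The remaining 4 genes of the list did not pass the test.

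The replicates without LIF differed along this list. Replicate 1 lay above replicate 2 for 17 of the 20 naive genes, with a median log2 difference of 1.28, and below it for 15 of the 18 formative genes, with a median of -0.51. The same naive median was -0.007 in WT, 0.04 in R342C and 0.24 in Q418R without LIF. Over all members, 1530 (8.59%) differed at least 2-fold between the K365T libraries without LIF and 672 (3.77%) between those with LIF. The part of this spread in the results below was not tested. Without replicate 1 of the no LIF group, 7222 members passed the threshold, and without replicate 2, 6882.

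Core pluripotency factors, which naive and primed cells share, split. Of 15 genes 3 rose and 6 fell, with a median of -0.22. Pou5f1, or Oct4, had 6946 and 8922 normalised counts without LIF, against 11415 and 10709.8 with LIF (-0.49 ± 0.16, adjusted p = 0.0228), a call lost with TPM, with upper-quartile scaling and when LIF replicate 1 or 2 or no LIF replicate 1 was left out (adjusted p up to 0.198). Sox2 had 6971 and 4996 without LIF and 9553 and 8416 with LIF (-0.60 ± 0.15), a call lost when LIF replicate 1 or no LIF replicate 2 was left out (adjusted p up to 0.0818). Tdgf1, the Nodal co-receptor Cripto, had 1649 and 3243 without LIF and 17857 and 14804 with LIF (-2.81 ± 0.26). Foxd3 (-2.25 ± 0.47) and Gdf3 (-1.84 ± 0.21) fell too. Lin28a, which blocks maturation of let-7 microRNAs, had 12163 and 15132 without LIF and 860.0 and 1445 with LIF (3.60 ± 0.30). Utf1, a chromatin protein, had 5844 and 4269 without LIF and 505 and 727 with LIF (3.03 ± 0.24), and both no LIF libraries exceeded both LIF libraries for these genes. Sall4, with 11776 and 11625 without LIF and 8671 and 11511 with LIF (0.23 ± 0.13), did not pass the test.

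Genes of the formative and primed states rose almost without exception. Of 18 genes 17 rose and 0 fell, with a median of 2.81. Pou3f1, or Oct6, had 571 and 1483 normalised counts without LIF, against 37.6 and 31.8 with LIF (4.58 ± 0.41). Fgf5, the marker ligand of the post-implantation epiblast, had 205 reads without LIF against 1 with LIF, a ratio of 211 (37.4 to 8370). Otx2, which redirects Oct4 to formative enhancers, had 1040.0 and 905 without LIF and 85.1 and 31.8 with LIF (4.11 ± 0.31). Foxp1 rose by 3.67 ± 0.28 and Lef1 by 3.62 ± 0.53. The gene that did not pass was Ttyh1 (-0.02 ± 0.22). Among DNA methylation enzymes 5 of 16 rose and 7 fell. The de novo methyltransferase Dnmt3b had 14621 and 26545 without LIF and 939.5 and 1619.7 with LIF (3.99 ± 0.27), and Dnmt3a had 9764 and 10605 without LIF and 1480.0 and 1424 with LIF (2.81 ± 0.15). Tet2, which oxidises methylcytosine, had 824 and 776 without LIF and 9369 and 11613 with LIF (-3.70 ± 0.18), and Zfp57, a protector of imprints, had 1508 and 1359.8 without LIF and 8061 and 10329 with LIF (-2.67 ± 0.15). Dnmt3l rose by 1.98 ± 0.33, and Uhrf1, the partner of Dnmt1, fell by 1.77 ± 0.10. Writers of new methylation were thus higher, and Tet2 and Uhrf1 lower, in both no LIF libraries.

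In the LIF and STAT3 pathway 2 of 18 genes rose and 10 fell, with a median of -0.79. Socs3, whose promoter is printed above, had 498 and 180.1 normalised counts without LIF, against 4784 and 3233 with LIF (-3.69 ± 0.32, adjusted p = 5.05e-07). Bcl3 had 71.7 and 77.5 without LIF and 1459 and 1444 with LIF (-4.21 ± 0.22), and Pramel7 had 2 reads without LIF against 225 with LIF, a ratio of 109 in favour of LIF (29.9 to 909). Stat3 itself (-1.82 ± 0.23) and the receptor chain Lifr (-1.81 ± 0.21) fell, and the no LIF libraries lay below LIF for every gene named so far in this pathway. Socs2 (1.77 ± 0.18) rose, as did Ptpn11 (0.33 ± 0.11), a phosphatase that links the receptor to ERK, whose call was lost with TPM, with the 4 K365T libraries alone and when LIF replicate 1 or no LIF replicate 2 was left out (adjusted p up to 0.202). The shared receptor chain Il6st had 3809 and 2854 without LIF and 2701 and 2736 with LIF (0.28 ± 0.12, adjusted p = 0.0824), which did not pass.

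Targets and feedback inhibitors of ERK rose in 11 of 22 cases and fell in 3, with a median of 0.87. Dusp4, a phosphatase of ERK, had 5238 and 2716 normalised counts without LIF, against 166 and 76.0 with LIF (5.02 ± 0.36). Dusp6 had 1966 and 2019 without LIF and 132 and 109.8 with LIF (4.01 ± 0.22), and Spry4, an inhibitor of receptor kinases, had 1834 and 2419.8 without LIF and 119 and 232 with LIF (3.63 ± 0.45). In all 3 the lower no LIF library was above the higher LIF library. Dusp5 (1.98 ± 0.34), Fosl1 (1.80 ± 0.41) and Etv4 (1.58 ± 0.26) rose, whereas Spry2, with 953 and 1348 without LIF and 2299 and 2638 with LIF (-1.12 ± 0.24), fell. The immediate early gene Egr1 had 1334 and 4380.3 without LIF and 6319 and 16898 with LIF (-2.09 ± 1.08, adjusted p = 0.131) and did not pass, with replicates more than 2-fold apart in both groups. With the replicate number as a block Egr1 passed (adjusted p = 0.0313) and 5 genes of the list fell. Without replicate 2 of the LIF group 1 fell.

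Targets of beta-catenin moved both ways: 8 of 18 rose and 5 fell. Sp5, whose promoter holds the TCF/LEF matches above, had 12.6 and 85.5 normalised counts without LIF, against 288 and 681 with LIF (-3.54 ± 0.72, adjusted p = 0.00102). Cdx1, a caudal homeobox gene, had 18.97 and 74.1 without LIF and 1637 and 2091 with LIF (-5.45 ± 0.57), and the secreted inhibitors Dkk1 (-4.06 ± 0.50) and Notum (-3.07 ± 0.35) also fell. Axin2, a standard readout of the pathway, had 1494 and 2400.4 without LIF and 1881 and 3289.7 with LIF (-0.39 ± 0.27, adjusted p = 0.266), and its groups overlapped. Ccnd2, a G1 cyclin, had 862 and 2998 without LIF and 133 and 97.5 with LIF (3.77 ± 0.47), which was higher in both no LIF libraries. The ligand Wnt8a, with 76.9 and 1003 without LIF and 25.4 and 39.0 with LIF (3.00 ± 0.88), differed more than 10-fold between the replicates without LIF, and its call was lost when LIF replicate 1 or no LIF replicate 2 was left out (adjusted p up to 0.196).

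Among FGF ligands and receptors 8 of 15 rose, or 5 when LIF replicate 2 was left out, and 4 fell. Fgf4, the autocrine ligand of naive cells, had 1055 and 457 normalised counts without LIF, against 4822 and 3422 with LIF (-2.54 ± 0.30), and Fgf10 had 2.11 and 9.12 without LIF and 308 and 388 with LIF (-5.29 ± 0.35). The receptor Fgfr2 had 664 and 646 without LIF and 49.7 and 61.6 with LIF (3.47 ± 0.25). Both ligands were lower and Fgfr2 higher in both no LIF libraries. Fgfr1 had 3560.4 and 4683 without LIF and 3475 and 3587 with LIF (0.21 ± 0.13), without a call. Of 18 members of Nodal and activin signalling 4 rose, or 7 with the block, and 5 fell. These shares, 22.2% and 27.8%, were near the 21.8% and 23.2% of all members. Besides Lefty1, the inhibitor Skil rose by 2.08 ± 0.16, while Pcsk6, a protease that matures Nodal (-2.89 ± 0.26), and the inhibitor Smad7 (-2.43 ± 0.24) fell. Nodal had 727 and 2084 without LIF and 1041 and 1231 with LIF (0.12 ± 0.42), and its groups overlapped. In the BMP pathway 8 of 17 rose and 3 fell, or 1 when LIF replicate 1 was left out. The target Id1 had 1323 and 1286 without LIF and 30.9 and 57.5 with LIF (4.82 ± 0.39), and Id2 had 3282 and 2496 without LIF and 188 and 98.5 with LIF (4.35 ± 0.29). Msx1 rose by 2.38 ± 0.42 and the ligand Bmp8b by 2.75 ± 0.32. The receptor Bmpr1b had 73 reads without LIF and 0 with LIF, at least 25.03-fold higher.

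Markers of later lineages moved in both directions. In neuroectoderm 8 of 12 members rose and 2 fell, or 1 when no LIF replicate 2 was left out, with a median of 1.986. Sox11 had 2043 and 2313 normalised counts without LIF, against 59.7 and 47.2 with LIF (5.25 ± 0.21), and Pax6, a neural and eye regulator, had 142 and 133 without LIF and 8.84 and 9.24 with LIF (3.44 ± 0.43). The early neural factor Sox1 had 203 and 288 without LIF and 191 and 171 with LIF (0.41 ± 0.25) and did not pass. In primitive streak and mesoderm 4 of 12 rose and 3 fell. The 4 were 1 or 2 when LIF replicate 1, LIF replicate 2 or no LIF replicate 2 was left out, without a filter, with TPM and with the 4 K365T libraries alone, and 0 among members with a mean of at least 100. T, or brachyury, had 37.9 and 278 without LIF and 16.6 and 30.8 with LIF (2.02 ± 0.76, adjusted p = 0.0425), a call lost without a filter, with TPM, with the 4 K365T libraries alone, without the WT libraries and when LIF replicate 1 or 2 or no LIF replicate 2 was left out (adjusted p up to 0.497). Gsc had 6.32 and 3.42 without LIF and 150.3 and 98.5 with LIF (-3.85 ± 0.38), and Kdr, a receptor of mesoderm, fell by 3.19 ± 0.38. In endoderm 8 of 19 rose (42.1%, against 21.8% of all members) and 5 fell (26.3%, near the 23.2% of all members). Cubn, the endocytic receptor cubilin, had 146 and 339 without LIF and 3.32 and 1.03 with LIF (5.23 ± 0.49), its partner Lrp2 had 5907 and 6948 without LIF and 800.3 and 1047 with LIF (2.80 ± 0.14), and the laminin gene Lama1 had 287 and 431 without LIF and 6352 and 6003 with LIF (-4.12 ± 0.23). The endoderm regulators Gata4 (0.49 ± 0.24) and Gata6 (0.42 ± 0.35) did not pass, and Gata4 passed with the block (adjusted p = 0.0424). Of 14 trophectoderm genes 5 rose (35.7%) and 4 fell (28.6%), against 21.8% and 23.2% of all members. Tead4 had 106 and 57.0 without LIF and 1771 and 1713 with LIF (-4.41 ± 0.29), and Krt18, a keratin, had 1332 and 608 without LIF and 251 and 225 with LIF (1.90 ± 0.32).

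Of 16 listed genes of fibroblasts and smooth muscle 10 passed the filter, and of these 9 rose and Vim fell (-1.31 ± 0.23). Genes near 0 with LIF, such as Cnn1 and Col1a2, passed the filter through the no LIF group alone. A rise among the members is thus partly set by the filter. The contractile genes Cnn1, with 255 and 441 normalised counts without LIF and 2.21 and 2.05 with LIF (5.79 ± 0.42), and Tagln, with 415 and 613 without LIF and 11.1 and 6.16 with LIF (5.36 ± 0.60), were well separated between the groups. Acta2, smooth muscle actin, rose by 5.02 ± 0.58 and Myl9 by 5.25 ± 0.41, and Col1a2 had 127 reads without LIF against 3 with LIF, a ratio of 43.6 (14.6 to 214). The summed level of 7 fibroblast or feeder markers was 856 and 1115 normalised counts without LIF and 289 and 217 with LIF. Of these markers Lum was at 0 in all 4 libraries, Postn was at 0 without LIF, and Dcn had 9.48 and 9.12 without LIF and 0 in both LIF libraries. The 7 endoderm markers summed to 1329 and 1889 without LIF and 533 and 490 with LIF, the 7 trophectoderm markers to 1931 and 1315 without LIF and 1365 and 1333 with LIF, and the 5 neural markers to 717 and 985 without LIF and 893 and 1699 with LIF. The 6 embryonic stem cell markers summed to 37660 and 31212 without LIF and 81120 and 88384 with LIF, so that these defining genes were well expressed in all 4 libraries. The part of mixed cell types in the responses was not tested.

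**Figure D2:**
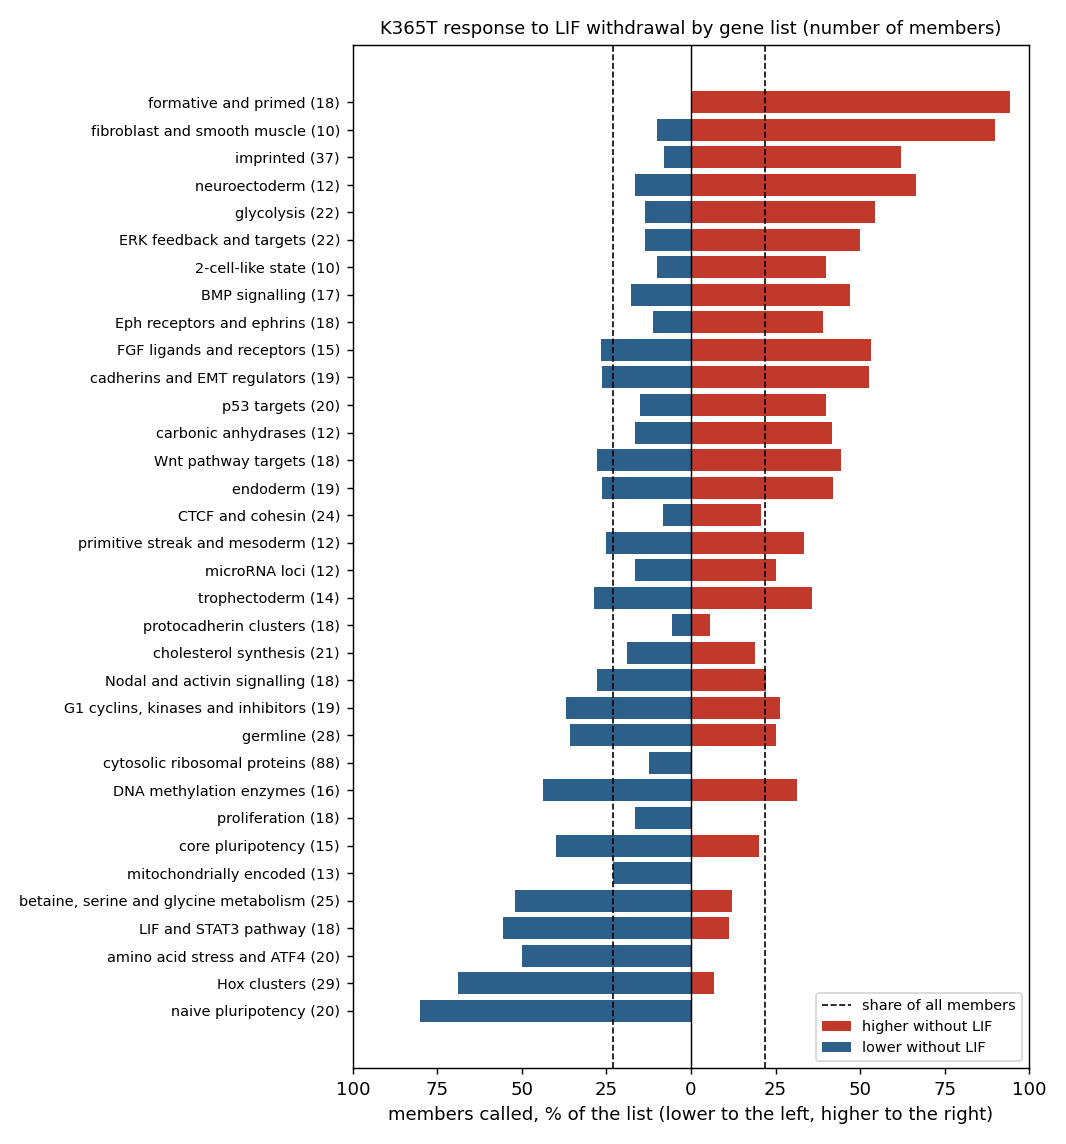
Share of each gene list that passed the test in the K365T line, in percent, drawn to the right for members higher without LIF and to the left for members lower, with the number of members in brackets and dashed lines at 21.8% and 23.2% of all members. The formative list (17 of 18 higher) and the naive list (16 of 20 lower) lie at opposite ends.

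Genes of cell contacts and adhesion moved in both directions. Of 19 cadherins and regulators of epithelial to mesenchymal transition 10 rose and 5 fell, or 3 when no LIF replicate 1 was left out, with TPM and with the 4 K365T libraries alone. Esrp1, an epithelial splicing regulator, had 2188 and 2795 normalised counts without LIF, against 106 and 81.1 with LIF (4.68 ± 0.19), and Epcam had 3992 and 3375 without LIF and 738 and 585 with LIF (2.47 ± 0.15). Zeb2, a repressor of E-cadherin, had 127 and 356 without LIF and 6.63 and 10.3 with LIF (4.14 ± 0.45). The epithelial genes and Zeb2 were all higher in both no LIF libraries. Cldn6, a claudin of tight junctions, rose by 2.28 ± 0.19, and Cdh3, P-cadherin, responded by 2.01 ± 0.28. Among 18 Eph receptors and ephrins 7 rose and 2 fell, or 1 when LIF replicate 1 or no LIF replicate 2 was left out, with opposite ends held by Epha1, given above, and Epha4, which had 488 and 490.1 without LIF and 12054 and 11293 with LIF (-4.57 ± 0.19). The ligand Efnb2 had 1287 and 1745 without LIF and 214 and 158 with LIF (3.00 ± 0.26). Of 12 carbonic anhydrases 5 rose and 2 fell: besides Car4 and Car14, Car3 (3.52 ± 0.33) and Car2 (2.38 ± 0.41) rose, and Car8 (-3.54 ± 0.41) and Car5a (-2.75 ± 0.42) fell.

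The 4 Hox clusters, whose order along the chromosome follows that of the body axis and whose domains are bordered by CTCF sites, were mostly lower without LIF. Of 39 listed genes 29 were members, of which 2 rose and 20 fell, with a median of -2.34. The count that fell was 4 in 1 of 17 alternatives and within 1.5 times of 20 in the rest. Hoxc9 to Hoxc12, near 0 without LIF, passed the filter through the LIF group alone. The 6 deepest falls were in Hoxc12, Hoxc10, Hoxc11, Hoxb13, Hoxc9 and Hoxd9. Hoxb13 had 14.8 and 5.70 normalised counts without LIF, against 209 and 211 with LIF (-3.99 ± 0.35), and Hoxd9 had 6.32 and 7.98 without LIF and 116 and 104 with LIF (-3.35 ± 0.40). Hoxc12 had 2 reads without LIF and 202 with LIF, a ratio of 98.2 in favour of LIF (26.8 to 816), and Hoxc10 had 0 reads without LIF and 129 with LIF, at least 41.8-fold lower. Hoxc11 had 2 reads without LIF and 148 with LIF, and Hoxc9 had 2 without LIF and 112 with LIF. The anterior gene Hoxb1, with 22.1 and 136 without LIF and 5.53 and 3.08 with LIF (2.88 ± 0.64), rose. In HoxA the responses of Hoxa2, Hoxa3, Hoxa4 and Hoxa5 were 0.74, -0.16, 0.07 and 0.53 in K365T. They were -1.30, -2.85, -1.41 and -0.34 in WT, -1.02, -2.32, -0.53 and -1.45 in R342C and -0.39, -1.77, -1.61 and -1.48 in Q418R. Of these 4 genes the difference from the other 3 lines was called for Hoxa3 alone (difference 2.16 ± 0.40, adjusted p = 0.0268), a call lost in 8 of 27 alternatives. Hoxa3 had 103 and 220.0 normalised counts in K365T without LIF against 24.2 to 57.3 in the other lines' libraries without LIF. In the clustered protocadherins, where CTCF sites pair promoters with an enhancer, 1 of 18 members rose (Pcdhac2, 1.76 ± 0.37), or 2 with the block, 5 when no LIF replicate 1 was left out and 0 among members with a mean of at least 100, and 1 fell (Pcdhgc3, -0.46 ± 0.17, a call lost without a filter, with TPM, with upper-quartile scaling, with the 4 K365T libraries alone, without the WT libraries and when LIF replicate 1 or 2 or no LIF replicate 1 or 2 was left out (adjusted p up to 0.206)).

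**Figure D3:**
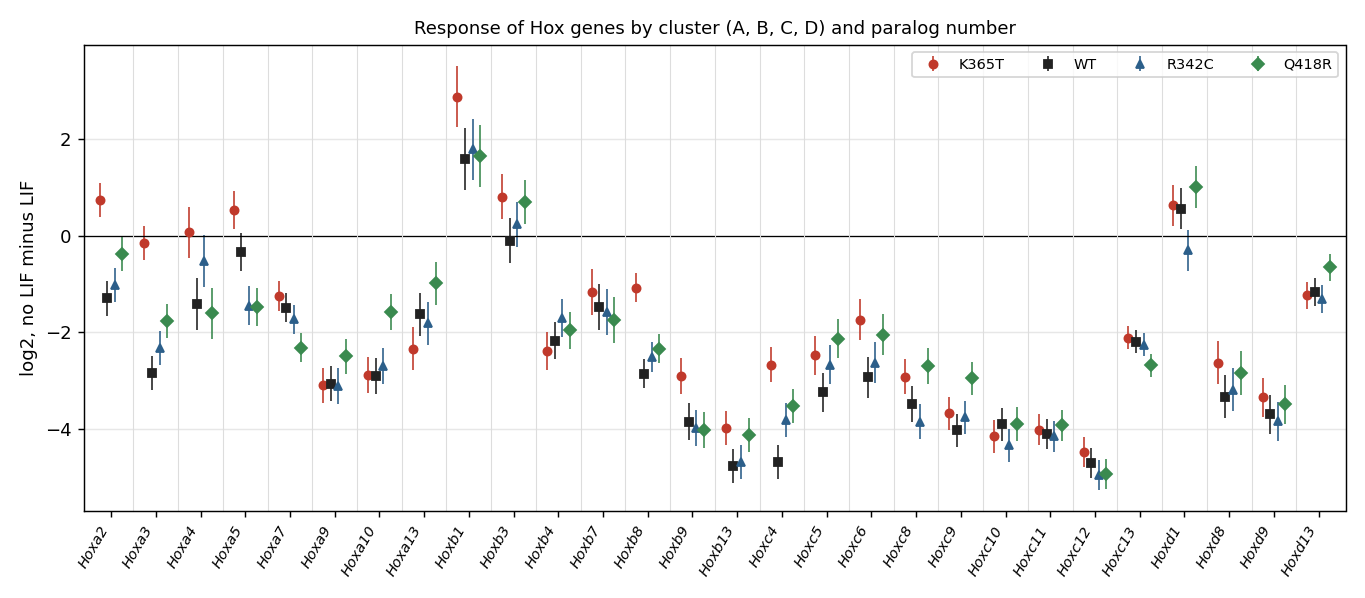
Response of 28 Hox genes (log2, no LIF minus LIF, with SE) in K365T and, to its right for each gene, in WT, R342C and Q418R, ordered by cluster and paralog number. Most genes lie below 0 in every line, and Hoxa3 lies at -0.16 in K365T and -2.85 in WT.

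Imprinted genes, expressed from 1 parental copy, rose in 23 of 37 cases and fell in 3, with a median of 1.22. At the H19 and Igf2 locus, the textbook case of a boundary made by CTCF, H19 had 133 and 168 normalised counts without LIF, against 3.32 and 4.11 with LIF (4.31 ± 0.41), and Igf2 had 45.3 and 152 without LIF and 3.32 and 4.11 with LIF (3.51 ± 0.75). Cdkn1c, an inhibitor of cell division, had 1538 and 2508 without LIF and 190.1 and 168 with LIF (3.43 ± 0.23), and Nnat had 320.3 and 367.02 without LIF and 6.63 and 19.5 with LIF (4.46 ± 0.45). Each of these 4 was higher in both no LIF libraries. Xist, the RNA that coats the inactive X chromosome, had 112 and 148 without LIF and 6.63 and 13.3 with LIF (3.29 ± 0.38). In the Dlk1-Dio3 domain Dlk1 rose by 3.11 ± 0.27. The maternal noncoding RNA Meg3 of the same domain had 8502 and 13421 without LIF and 1954 and 1739 with LIF (2.53 ± 0.17), and Rian had 9996 and 17715 without LIF and 2741 and 3033 with LIF (2.20 ± 0.20). Of the 3 that fell, Ddc, which makes dopamine and serotonin, changed most (-2.13 ± 0.33). Reads were not assigned to parental copies.

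Of 28 germline genes 7 rose (25%, near the 21.8% of all members) and 10 fell (35.7%, against 23.2%), or 6 with TPM. Dazl, an RNA-binding protein of germ cells, had 253 and 194 normalised counts without LIF, against 1352 and 1653 with LIF (-2.73 ± 0.28), and Hormad1 had 215 and 150.5 without LIF and 990.4 and 1117 with LIF (-2.52 ± 0.34). Taf7l had 257 and 197 without LIF and 29.8 and 18.5 with LIF (3.05 ± 0.32), and Tdrd1, a partner of Piwi proteins, had 332 and 366 without LIF and 69.6 and 22.6 with LIF (2.994 ± 0.40). Dazl and Hormad1 were lower, and Taf7l and Tdrd1 higher, in both no LIF libraries. Among CTCF, cohesin and their regulators 5 of 24 rose (20.8%, near the 21.8% of all members) and 2 fell (8.33%, against 23.2% of all members), and 8 rose with upper-quartile scaling. The germline paralog of CTCF, Ctcfl, had 40.0 and 37.6 without LIF and 0 and 4.11 with LIF (2.91 ± 0.47), and the meiotic cohesins Rad21l (2.91 ± 0.32) and Rec8 (2.01 ± 0.23) rose. Of the mitotic subunits Stag2 rose (1.22 ± 0.12), while Stag1 (-0.70 ± 0.11) and Rad21 (-0.48 ± 0.11) fell. In the 2-cell-like list 4 of 10 genes rose and 1 fell, at low levels: Zscan4e had 33.7 and 61.5 without LIF and 6.63 and 6.16 with LIF (2.26 ± 0.33). The Zscan4 copies are near-identical and the authors' counting may split reads among them. The 13 markers of that state summed to 276 and 425 without LIF and 148 and 163 with LIF, with Tcstv1 at 0 in all 4 libraries.

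Of 25 genes of betaine, serine and glycine metabolism 3 rose and 13 fell, with a median of -0.47. Of these genes 3 lie close together on chromosome 13 (mm10): Bhmt at 93616675 to 93637961, Bhmt2 at 93655720 to 93674302 and Dmgdh at 93674433 to 93752833. Dmgdh, which demethylates the product of Bhmt, had 21.1 and 33.1 normalised counts without LIF, against 1161 and 1161 with LIF (-5.26 ± 0.31), and Bhmt2 had 16.9 and 22.8 without LIF and 558 and 550.2 with LIF (-4.56 ± 0.24). The promoter windows of Dmgdh and Bhmt2 lie head to head and share 233 bases. Tdh, the threonine dehydrogenase that mouse naive cells rely on, had 1936 and 1902 without LIF and 6359 and 8637 with LIF (-1.95 ± 0.29). Chdh, which makes betaine from choline, had 33.7 and 60.4 without LIF and 4.42 and 3.08 with LIF (2.67 ± 0.37) and rose. In glycolysis 12 of 22 genes rose and 3 fell. The lactate exporter Slc16a3 had 1004 and 2561 without LIF and 175 and 140.62 with LIF (3.32 ± 0.33). Pdk1, a kinase of pyruvate dehydrogenase, had 5799 and 6230.2 without LIF and 634 and 657 with LIF (3.21 ± 0.21). The glucose transporter Slc2a1 had 6373 and 7179.7 without LIF and 1304 and 1133 with LIF (2.47 ± 0.13). The hexokinases Hk1 (-2.53 ± 0.23) and Hk2 (-1.71 ± 0.12) fell. Of 21 cholesterol synthesis genes 4 rose, or 2 when LIF or no LIF replicate 2 was left out, and 4 fell, or 2 when LIF replicate 1 was left out. Both counts of 4 are 19.05% of the list, near the 21.8% and 23.2% of all members. Ebp, the sterol isomerase gene, fell by 1.34 ± 0.18. Of 20 amino acid stress genes driven by ATF4 0 rose and 10 fell. With the block 2 rose, when LIF replicate 1 was left out 2 rose and 5 fell, and when no LIF replicate 2 was left out 6 fell. The deepest fall was that of asparagine synthetase, Asns, with 4873 and 2809.6 without LIF and 23508 and 24560.4 with LIF (-2.70 ± 0.18).

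Of 18 proliferation genes 0 rose and 3 fell (16.7%, against 23.2% of all members). The count that fell was 1 with TPM and when LIF replicate 2 was left out, and with upper-quartile scaling 1 rose. Rrm2, a subunit of ribonucleotide reductase, fell by 1.25 ± 0.19. Mki67, the antigen Ki-67, had 12601 and 10830.5 normalised counts without LIF and 10359 and 10972 with LIF (0.13 ± 0.14). Of 19 G1 cyclins, kinases and inhibitors 5 rose and 7 fell. The 5 were 3 when LIF replicate 1 or no LIF replicate 2 was left out, and the 7 were 4 when no LIF replicate 2 was left out. Ccnd2 and Cdkn1c, given above, rose, and Ccnd3 (-1.19 ± 0.11) and Cdk6 (-1.11 ± 0.27) fell. The targets of p53 had a median of 0.38 in K365T, with 8 of 20 higher (5 when LIF replicate 2 was left out) and 3 lower (1 when no LIF replicate 2 was left out), and a median of -0.14 in WT, -0.21 in R342C and -0.04 in Q418R. Pmaip1, the apoptosis gene Noxa, had 1342 and 1617 without LIF and 399 and 236 with LIF (2.25 ± 0.31), and Bbc3, or Puma, had 1801 and 1324 without LIF and 853 and 428 with LIF (1.35 ± 0.27). Tigar, which slows glycolysis, fell by 2.04 ± 0.12. For 2 genes of the list the difference from the other 3 lines was called. Cdkn1a, the cell cycle inhibitor p21, had 2697 and 2734 without LIF and 3708 and 2719 with LIF (-0.23 ± 0.15, adjusted p = 0.256) in K365T, while it fell in WT, R342C and Q418R (-1.81, -1.57 and -1.40). That difference was 1.37 ± 0.18 (adjusted p = 0.00332), and without LIF both K365T libraries lay above the 1197 to 1973 normalised counts of the other lines. Trp53inp1 rose in K365T (0.93 ± 0.14) and differed by 0.99 ± 0.16 (adjusted p = 0.0136). Of 88 cytosolic ribosomal protein genes 0 rose, or 1 with the block, and 11 fell, with a median of -0.14. The 11 were 24 with the block, 19 when no LIF replicate 1 was left out and 4 to 7 when LIF replicate 1 or no LIF replicate 2 was left out, with TPM, with upper-quartile scaling and with the 4 K365T libraries alone. Of 12 microRNA loci 3 rose (25%) and 2 fell (16.7%), against 21.8% and 23.2% of all members. The count that fell ran from 0 to 6 over the alternatives. Mir17hg, host of the miR-17-92 cluster, had 848 and 1188 without LIF and 203 and 276 with LIF (2.06 ± 0.28) and rose.

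The response of K365T was then set against those of the other lines, which addresses how the response differs with the form of CTCF, as far as 1 line per form allows. Over the same 17817 genes, 8624 (48.4%) were called in WT, 8363 (46.9%) in R342C and 8240 (46.2%) in Q418R. Of the K365T calls 3139 of those that rose were also called higher in WT, 80.9% of the K365T calls and 74.6% of the WT calls. Of those that fell 3345 were shared with WT, 81.0% and 75.8%. Called in opposite directions were 22 genes in WT, 19 in R342C and 14 in Q418R. Across all members, which are not independent replicates, Pearson's r between the K365T response and the mean response of the other 3 lines was 0.937 and the slope 0.919. Over the 11799 genes with a mean of at least 100 they were 0.951 and 0.901.

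**Figure D4:**
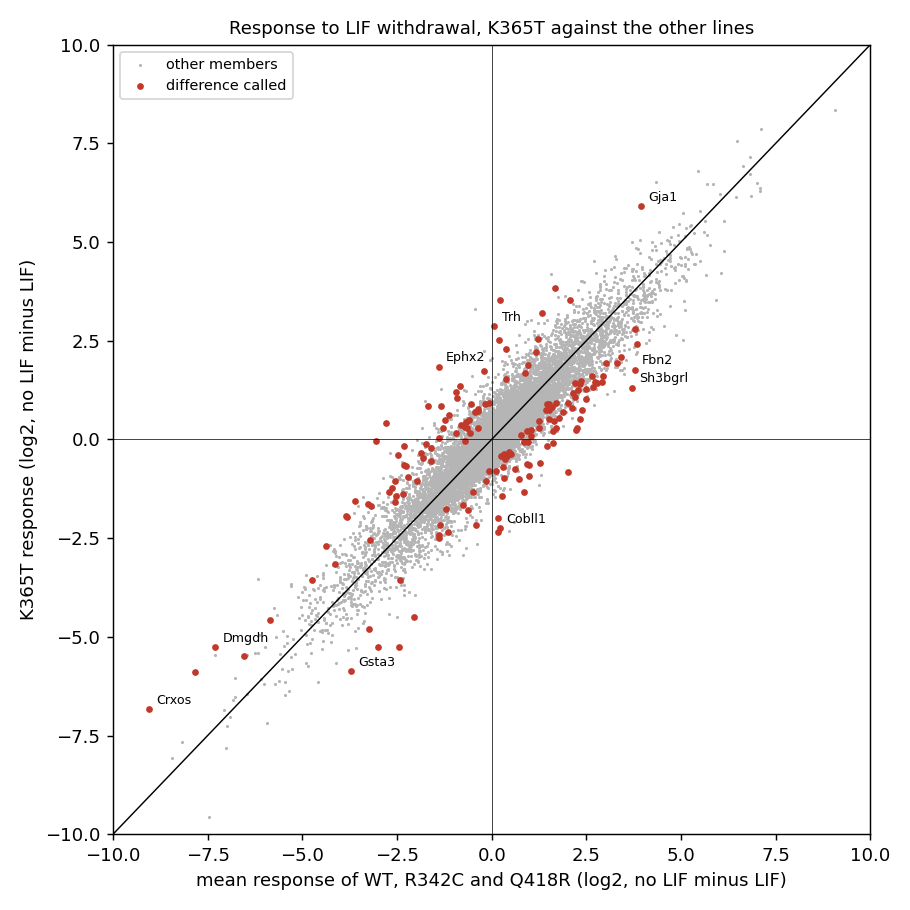
Response of each member in K365T (vertical axis) against the mean response in WT, R342C and Q418R (horizontal axis), both log2, no LIF minus LIF, with a line of equality and the 160 genes whose difference was called in red. Most members lie near the line, Ephx2 lies at 1.84 in K365T on the other side of 0, and Cobll1 lies at -2.25.

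The difference itself was tested for every member in the same limma fit. A difference between lines is given below as the K365T response minus the mean response of WT, R342C and Q418R, or minus the WT response where WT alone is named. The K365T response differed from the mean of the other 3 lines for 160 members (0.898%), above it for 72 (0.404%) and below it for 88 (0.494%). With the replicate number as a block, since libraries of 1 number deviated together within each line, 571 members passed. In 79 of the 160 the response had the same sign and was smaller in K365T, in 30 it was larger, and in 51 it had the opposite sign. The size of the difference had a median of 1.30 and ran from 0.571 to 3.34, and 43 of the 160 were not called in the K365T response. The count rested on single libraries: it was 29 without replicate 2 and 39 without replicate 1 of K365T with LIF, and 272 without replicate 1 of K365T without LIF. Leaving out replicate 1 or 2 of R342C with LIF gave 57 and 60, and of R342C without LIF 82 and 92. It was 63 without replicate 2 of Q418R with LIF and 89 without replicate 2 of Q418R without LIF, and 83 and 89 without replicate 1 or 2 of WT with LIF. Against WT alone 115 members differed (0.645%), 58 above (0.326%) and 57 below (0.320%), 469 with the block, and 89 genes were in both sets. That count was 11 without replicate 1 and 40 without replicate 2 of WT with LIF, 76 without replicate 1 and 26 without replicate 2 of K365T with LIF, 31 without replicate 2 of WT without LIF, and 257 without replicate 1 of K365T without LIF. Chromosome X held 13 of the 160 genes (8.13%) and 3.40% of the members.

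Ephx2, soluble epoxide hydrolase, which hydrolyses fatty acid epoxides, rose in K365T and fell in the other lines. It had 1742 and 1029 normalised counts in K365T without LIF, against 313 and 438 with LIF (1.84 ± 0.26, adjusted p = 5.14e-05), and its responses in WT, R342C and Q418R were -1.49, -1.26 and -1.46. The difference from the mean of these was 3.25 ± 0.30 (adjusted p = 0.000216) and that from WT 3.33 ± 0.37 (adjusted p = 0.00145), and both held in every alternative tried. In LIF both K365T libraries lay below all 6 libraries of the other lines, which held 880.4 to 3962, and without LIF the other lines held 413 to 1297. The gene lies on chromosome 14, 66084374 to 66124500 (mm10). Trh, thyrotropin-releasing hormone, had 3849 and 4560.4 without LIF and 640.0 and 507 with LIF (2.87 ± 0.49), and responses of -1.28 in WT, 0.62 in R342C and 0.87 in Q418R. The difference was 2.80 ± 0.57 (adjusted p = 0.0405), a call lost in 11 of 27 alternatives. Gja1, the gap junction protein connexin 43, had 21455 and 28336 without LIF and 246 and 665 with LIF (5.91 ± 0.31) in K365T. Without LIF its level in the other lines, 19438 to 28166, overlapped that of K365T, and in LIF the other lines held 1150.3 to 1835, above both K365T libraries. The difference was 1.98 ± 0.35 (adjusted p = 0.0221), a call lost in 3 of 27 alternatives.

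Several genes whose K365T response lay above that of the other lines fell in K365T, but less far. Crxos had 24.2 and 15.96 normalised counts in K365T without LIF, against 0 to 12.1 in the other lines' libraries without LIF, and its response of -6.84 compared with -9.87 in WT (difference 3.03 ± 0.49, adjusted p = 0.0162). Dmgdh had 21.1 and 33.1 without LIF in K365T and 0 to 14.3 in the other lines (difference 2.04 ± 0.35, adjusted p = 0.0181), and Bhmt2 differed by 1.30 ± 0.28 (adjusted p = 0.0459), a call lost in 18 of 27 alternatives. For Bhmt the difference was 0.36 ± 0.31 (adjusted p = 0.754). For Crxos and Dmgdh both K365T libraries without LIF were above all 6 of the other lines. Tdh had 1936 and 1902 in K365T without LIF and 196 to 1492 in the other lines (difference 1.90 ± 0.33, adjusted p = 0.0181). Kit, a receptor of stem cell factor chosen after its values were seen, had 1253 and 985 in K365T and 273 to 934 in the others without LIF (difference 1.19 ± 0.21, adjusted p = 0.0221). The nuclear receptor gene Nr5a2, of the naive list, responded by -2.96 ± 0.25 in K365T, -5.24 in WT and -2.991 in Q418R, and differed from WT by 2.28 ± 0.35 (adjusted p = 0.014). H2-Eb1, of the class II histocompatibility genes, fell less than the mean of the other lines as well (difference 1.86 ± 0.28), as did Ablim1 (difference 1.68 ± 0.30) and Aox3 (difference 1.92 ± 0.42), the last a call lost in 21 of 27 alternatives. Nrp2, a receptor of semaphorins, fell less than in WT (difference 2.30 ± 0.48), a call lost in 11 of 20 alternatives. Fam167a rose in K365T (1.75 ± 0.34), had responses of -0.75, -0.13 and 0.24 in WT, R342C and Q418R, and differed by 1.96 ± 0.39, a call lost in 13 of 27 alternatives. Of the imprinted genes Meg3 rose further in K365T (difference 1.30 ± 0.19, adjusted p = 0.00918), where its LIF level of 1954 and 1739 lay below the 4049.8 to 5923 of the other lines, and Rian also differed (difference 1.04 ± 0.23, adjusted p = 0.0488), a call lost in 18 of 27 alternatives. Calls were lost in 4 of 20 alternatives for Crxos and 3 of 20 for Nr5a2 against WT, and in 1 to 4 of 27 for Dmgdh, Tdh, Kit, H2-Eb1, Ablim1 and Meg3 against the mean of the other lines.

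Other genes responded less, or downward, in K365T. Cobll1, a cordon-bleu-like protein, had 157 and 198 normalised counts in K365T without LIF, against 857 and 854 with LIF (-2.25 ± 0.18, adjusted p = 2.01e-07), and responses of 0.36, 0.45 and -0.19 in WT, R342C and Q418R. The difference was -2.46 ± 0.21 (adjusted p = 0.000147), and in LIF the other lines held 232 to 320.5, below both K365T libraries. Its neighbour Grb14, an adaptor of the insulin receptor chosen after its values were seen, had 105 and 77.5 without LIF and 208 and 129 with LIF in K365T (-0.83 ± 0.33, adjusted p = 0.0567, and 0.0492 with the replicate number as a block) and rose in WT, R342C and Q418R by 2.25, 2.40 and 1.40. That difference was -2.85 ± 0.39 (adjusted p = 0.00419). Grb14 lies on chromosome 2, 64912476 to 65024987 and Cobll1 on chromosome 2, 65088339 to 65239403 (mm10). Sh3bgrl, whose promoter is printed above, had 1321 and 1149 without LIF and 558 and 440.3 with LIF (1.31 ± 0.24). It rose by 4.12 in WT, 4.11 in R342C and 2.90 in Q418R (difference -2.40 ± 0.28, adjusted p = 0.00211). Its LIF level in the other lines was 33.5 to 174, below both K365T libraries, and its level without LIF was 737 to 1056. Shroom4, on the X chromosome as well, had 598 and 818 without LIF and 462 and 513 with LIF in K365T (0.52 ± 0.19), and its difference of -1.81 ± 0.22 (adjusted p = 0.00296) also went with a higher LIF level than the 134 to 247 of the other lines. In Cobll1, Sh3bgrl and Shroom4 the LIF libraries of K365T thus stood apart from those of all other lines.

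Gsta3, a glutathione transferase, had 5.27 and 6.84 normalised counts in K365T without LIF, against 570.4 and 597 with LIF (-5.87 ± 0.24), below the 13.5 to 31.8 of the other lines without LIF and above their 266 to 356 with LIF (difference -2.16 ± 0.28, adjusted p = 0.00332). Fmn1, an actin nucleator, responded by -2.17 ± 0.19 in K365T and -0.61 in WT and differed from the mean of the other lines by -1.74 ± 0.22 (adjusted p = 0.00332). Cgn, the tight junction protein cingulin, rose by 1.46 ± 0.15 in K365T and by 3.45 in WT (difference -1.98 ± 0.22, adjusted p = 0.00145). The tumour suppressor gene Cdkn2a, which makes p16 and p19Arf, had 126 and 76.4 without LIF and 207 and 176 with LIF in K365T (-0.93 ± 0.31) and responses of 1.33, 1.14 and 0.47 in WT, R342C and Q418R (difference -1.91 ± 0.36, adjusted p = 0.0268), a call lost in 6 of 27 alternatives. Its call in the K365T response was lost with the 4 K365T libraries alone and when LIF replicate 1 or 2 or no LIF replicate 2 was left out (adjusted p up to 0.212). Sox6 (difference -2.16 ± 0.40), Fbn2 (difference -2.01 ± 0.33), Ank (difference -1.87 ± 0.31) and Sobp (difference -1.70 ± 0.28) were also below the mean of the other lines, and Slc1a3 (difference -2.002 ± 0.28), Lamb1 (difference -1.90 ± 0.38), Rab3b (difference -1.81 ± 0.35) and Kif5c (difference -1.69 ± 0.24) below WT. Against the mean of the other lines the call was lost in 7 of 27 alternatives for Sox6, 3 for Fbn2 and 2 each for Ank and Sobp. Against WT it was lost in 9 of 20 for Lamb1 and for Rab3b, 2 for Slc1a3 and 1 for Kif5c. Of the 20 genes picked by rank against the mean of the other lines 6 stayed called in every alternative, namely Cobll1, Ephx2, Fmn1, Gsta3, Sh3bgrl and Shroom4. Of the 20 picked by rank against WT these were Cgn, Cobll1, Ephx2 and Sh3bgrl.

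**Figure D5:**
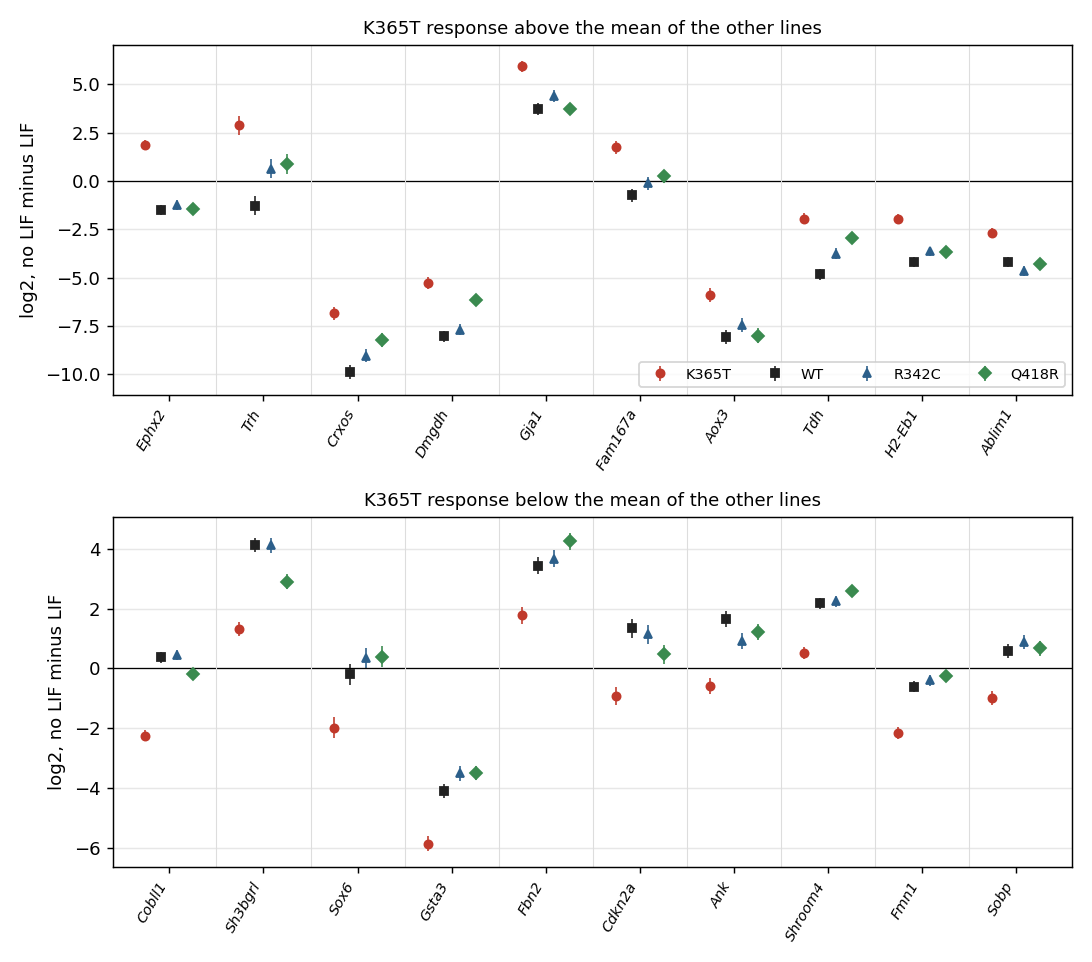
Response (log2, no LIF minus LIF, with SE) in K365T and, to its right, in WT, R342C and Q418R for 10 genes above (upper panel) and 10 below (lower panel) the mean response of the other lines. They have the largest called differences among genes with a mean of at least 100 over all 16 libraries and K365T groups that did not overlap, clone names left out. Ephx2 lies at 1.84 in K365T and between -1.49 and -1.26 in the others, and Cobll1 lies at -2.25 in K365T and between -0.19 and 0.45 in the others.

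Few genes were called in opposite directions in K365T and WT. Apart from Ephx2, Trh and Cdkn2a, Alpl, the alkaline phosphatase of pluripotent cells, had 5419 and 6398 normalised counts in K365T without LIF and 3515 and 3605 with LIF (0.73 ± 0.20), and a response of -0.85 in WT. The call in K365T was lost when no LIF replicate 2 was left out (adjusted p up to 0.0578), and the difference from WT was 1.57 ± 0.28 (adjusted p = 0.0244), a call lost in 7 of 20 alternatives. Antxr1, a collagen receptor, responded by 1.06 in K365T and -0.76 in WT (difference 1.82 ± 0.40, adjusted p = 0.0605). Arhgap18 responded by -0.75 in K365T and 0.85 in WT (difference -1.60 ± 0.37, adjusted p = 0.0735). For these 2 genes the difference from WT did not pass, while with the block it did (adjusted p = 0.025 and 0.0227). Their calls in K365T were lost in 2 and 6 of the alternatives, with adjusted p up to 0.126 and 0.123. Among the formative genes, Grhl2, which opens epithelial enhancers, responded by 0.73 ± 0.28 in K365T, 2.60 in WT, 2.87 in R342C and 1.66 in Q418R (difference -1.64 ± 0.32, adjusted p = 0.0345), a call lost in 14 of 27 alternatives. Its call in K365T was lost without a filter, among members with a mean of at least 100, with TPM, with TMM scaling, with edgeR and when LIF replicate 2 or no LIF replicate 1 or 2 was left out (adjusted p up to 0.365). Lin28b, a relative of Lin28a, rose by 2.41 ± 0.25 in K365T, 3.86 in WT, 4.13 in R342C and 3.49 in Q418R (difference -1.41 ± 0.29, adjusted p = 0.0407), a call lost in 13 of 27 alternatives. Il6st, which did not pass in K365T, responded by -0.42, -0.34 and -0.36 in WT, R342C and Q418R (difference 0.65 ± 0.14, adjusted p = 0.0488), a call lost in 19 of 27 alternatives. No gene of the naive list differed from the mean of the other 3 lines, and the median difference over its 20 members was 0.53, against -0.0151 for all members.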

How the data were processed

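RNA was sequenced from 16 libraries, 2 in each of 8 groups (4 lines, LIF and no LIF), after depletion of ribosomal RNA. Per the submitters' processing notes, Trim Galore, STAR and DESeq2 were used with build mm10. Their versions, the counting tool, its use of strand and the annotation are not given in the sources used here. The authors deposited 2 tables. One is a signal per gene, the authors' normalised counts, which are gene counts divided by 1 size factor per library. The other, also made by the authors, is TPM per gene. In the first, 1 read was worth 0.779 to 1.19, and 99.998% to 100% of values per library were whole multiples of it within 0.05, so that reads were recovered (19721363 to 23622882 per K365T library). No column belonged to another series (0).

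Genes with a mean of at least 10 normalised counts over the 4 K365T libraries were tested with limma 3.58.1 (R 4.3.3) on log2(normalised count + 4), with the 8 groups and all 16 libraries in the fit, 8 residual degrees of freedom, a variance trend and Benjamini-Hochberg adjustment over 17817 genes, at an adjusted p under 0.05. The contrasts were K365T no LIF minus LIF, and that response minus the mean of the other 3 lines' responses or minus WT's. Alternatives used other pseudocounts (1 and 16), filters and scalings, log2(TPM + 0.1), edgeR 4.0.16 and DESeq2 1.42.0 on recovered reads, a replicate block and omitted libraries. The limma fit, with and without the block, edgeR and DESeq2 were tested on simulated data. Each simulated library was drawn independently, so that test does not address deviations shared by libraries of the same number. Deviations of libraries with the same number correlated at 0.380 in K365T, 0.376 in WT, 0.364 in R342C and 0.422 in Q418R over 11796 genes. The replicate block therefore took the numbers as pairs. No other fit did, so SE and adjusted p values take no account of pairs unless the block is named. Ratios where a group had 3 reads or fewer carry 95% exact binomial intervals, and floors use 3 reads over both libraries, for counting error only. Tables were made with python 3.11.15. Gene positions are from GENCODE M21.

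The members and gene lists were chosen with earlier results of these data known. The text names the 12 largest rises and 12 largest falls with a mean of at least 100, up to 6 called genes per list, the 10 largest differences in each direction against the other lines and against WT, up to 6 genes called in opposite directions in K365T and WT, and the 10 most abundant calls. Rises, falls and differences were ranked among called genes whose K365T groups did not overlap. For the differences the mean of at least 100 was taken over all 16 libraries. Clone names, such as Gm and digits, were left out except in the lists. All other genes named were chosen after their values were seen, among them Esrrb, Pou5f1, Sox2, Sall4, Ttyh1, Socs2, Ptpn11, Il6st, Spry2, Egr1, Axin2, Wnt8a, Fgfr1, Nodal, Sox1, Gata4, Gata6, Vim, Ddc, Rad21, Mki67, Cdkn1a, Trp53inp1, Kit, Grb14, Lin28b, Grhl2, Meg3, Rian, Bhmt and Bhmt2 between lines, and Hoxa2 to Hoxa5. Some genes that these rules pick are not reported here.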

Additional observations from a re-analysis of the deposited data

Results flagged for a closer look

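The genes below stand out because their response to withdrawal differed between lines, by the limma test of the difference itself at an adjusted p under 0.05. Against the mean response of the other 3 lines, the log2 difference of the K365T response was positive for Ephx2 (3.25), Trh (2.8), Crxos (2.2), Dmgdh (2.04), Gja1 (1.98), Fam167a (1.96), Aox3 (1.92), Tdh (1.9), H2-Eb1 (1.86) and Ablim1 (1.68). It was negative for Cobll1 (-2.46), Sh3bgrl (-2.4), Sox6 (-2.16), Gsta3 (-2.16), Fbn2 (-2.01), Cdkn2a (-1.91), Ank (-1.87), Shroom4 (-1.81), Fmn1 (-1.74) and Sobp (-1.7).

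Against the WT response the log2 difference was positive for Trh (4.15), Ephx2 (3.33), Crxos (3.03), Tdh (2.87), Dmgdh (2.78), Fam167a (2.5), Nrp2 (2.3), Nr5a2 (2.28), Gja1 (2.22) and H2-Eb1 (2.21), and negative for Sh3bgrl (-2.81), Cobll1 (-2.61), Ank (-2.27), Cdkn2a (-2.26), Slc1a3 (-2), Cgn (-1.98), Lamb1 (-1.9), Rab3b (-1.81), Gsta3 (-1.77) and Kif5c (-1.69). These are the 10 largest called differences in each direction among genes with a mean of at least 100 over all 16 libraries. Clone names and genes whose K365T groups overlapped were left out. Called differences outside these limits, such as Grb14 (-2.85) and Hoxa3 (2.16) against the other lines, are not listed. The sizes listed are those of a selected group. Each line had 2 libraries per condition, and no single library was tested for standing apart.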

How the results depend on the processing

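The count of genes called in the K365T response, 8010, ran from 5521 (genes with a mean of at least 100, fewer genes tested) to 9367 (no filter, more genes tested). It was 9319 with the replicate block, 6135 with the 4 K365T libraries alone, 7944 without the WT libraries (chosen after seeing the data) and 6340 to 7222 without 1 K365T library. The 160 genes that differed from the mean of the other 3 lines were 91 with no filter, 40 with TPM, 431 with DESeq2, 571 with the replicate block and 29 to 272 without 1 library. The 115 that differed from WT were 41 with no filter, 32 with TPM, 416 with DESeq2, 469 with the replicate block, 9 with the 8 K365T and WT libraries alone and 11 to 257 without 1 library. The tests in fits without a library assume that a lone library varies like the others. Apart from changes in the number of genes or libraries, the cause was not tested. The block changed no call of a named gene, and moved no list count by over 1.5 times, other than those given beside the result.

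Of 225 named genes called in the K365T response 190 were called in every alternative, and 1055 of 1156 list counts stayed within 1.5 times. Many of these genes were picked by the size of called changes in the same data. Their share therefore does not measure how stable calls are in general. Of all 8010 calls in the K365T response, 7989 were shared with the replicate block, 6900 with TPM and 6094 with the 4 K365T libraries alone. For the named genes, direction turned in 10 fits, all of genes with no call. When 1 K365T library was left out, the response ran from -0.795 to 0.00964 for Axin2, -0.689 to 0.373 for Hoxa3, -0.605 to 0.741 for Hoxa4, -0.636 to 0.878 for Nodal and -0.249 to 0.205 for Ttyh1. Values with a turned sign were 0.00964 for Axin2 (LIF replicate 2 left out), 0.142 and 0.373 for Hoxa3 (LIF or no LIF replicate 1), -0.244 and -0.605 for Hoxa4 (LIF or no LIF replicate 2), -0.636 for Nodal (no LIF replicate 2) and 0.205 and 0.0892 for Ttyh1 (LIF or no LIF replicate 1). Ttyh1 was at 0.0436 with TPM and 0.0740 with upper-quartile scaling. With 2 libraries per group, genes whose replicates differ widely limit what these counts can show.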
